A study of Mus musculus with 12 samples.

Results

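The keratinocytes of the male hind paw epidermis were compared between mice on a high-fat diet (HFD) and mice on a regular diet (RD). A droplet was taken as a keratinocyte when it held 200 to 6000 genes, at most 5% mitochondrial UMIs, no UMI of Cd207, Cd74 or Cd3e, and at least 0.5% of its UMIs in the 4 keratins Krt1, Krt10, Krt5 and Krt14. A UMI is a molecular tag that counts each captured transcript once, and CPM is the UMI count of a gene after each library was scaled to the same total. This rule kept 57072 of the 69981 male droplets, out of 140392 in the whole series of 12 libraries. The RD libraries gave 12753, 14053 and 7624 keratinocytes, and the HFD libraries gave 5669, 8036 and 8937.

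All mice were wild-type C57BL/6J, aged 16 to 18 weeks at harvest, and had received their diet for 10 weeks, starting at 6 to 8 weeks of age. The RD held 11% fat and the HFD (EnvigoTD88137) 42% fat. Each of the 3 RD and 3 HFD libraries came from the glabrous hind paw epidermis of 1 mouse, freed with Dispase overnight and TrypLE. Females on the same diets (3 RD and 3 HFD libraries) served only as a second reading of the diet. Per library, the male keratinocytes held between 98604579 and 161734853 UMIs, and the median keratinocyte held between 6592 UMIs (RD replicate 2) and 14977 UMIs (HFD replicate 1).

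Keratinocytes divide in the basal layer, where they make Krt5 and Krt14, and switch to Krt1 and Krt10 as they move into the spinous layer. In the granular layer they make loricrin, filaggrin and other proteins that transglutaminases cross-link into the cornified envelope, and they secrete lipids and proteases that seal the surface and let dead cells shed. Glabrous paw skin is thick, bears load and has few hairs but sweat glands, and its sensory nerve endings run between the keratinocytes.

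Keratinocyte markers were high, in large part by the rule, since 4 of the 10 are its own keratins. The summed level of 10 keratinocyte markers was 45398 to 52625 CPM on RD and 51438 to 55363 CPM on HFD. Of the 10, 3 were higher in every HFD library than in any RD library, against 6.74% of all genes tested. Of the 6 markers that the rule did not use, Perp lay between 3444 and 4033 CPM, Sfn between 3636 and 5027 CPM and Trp63 between 69.3 and 87.4 CPM over the 6 libraries. Langerhans cell markers summed to 17.7 to 18.8 CPM on RD and 13.9 to 17.8 on HFD, with Cd207 and Cd74 at 0 by the rule, and T cell markers to 1.85 to 3.20 and 2.11 to 3.1 CPM with Cd3e at 0. Sweat gland markers summed to 73.3 to 74.3 and 64.1 to 82.1 CPM, fibroblast markers to 48.9 to 80.4 and 41.4 to 50.2 CPM, Schwann cell markers to 13.5 to 19.6 and 13.1 to 14.2 CPM, and melanocyte markers to 1.51 to 4.50 and 0.723 to 1.70 CPM. Single genes made up most of several sums over the 6 libraries: Aqp5 of sweat gland (53.0 to 71.2 CPM), Dcn of fibroblast (40.1 to 79.5), Mbp of Schwann cell (12.6 to 19.1) and Mfge8 of Langerhans cell markers (11.3 to 14.9). The study also used Dcn as a marker of migratory keratinocytes. Muscle markers were at 1.26 to 1.81 CPM on RD and 2.43 to 2.86 on HFD, while red cell, Merkel cell and endothelial markers stayed under 0.52 CPM in every library. Xist was under 0.05 CPM and the Y-linked Ddx3y between 38.9 and 48.5 CPM in the 6 libraries, as the male labels require. Pairs of male libraries shared between 12 and 45 keratinocyte barcodes, at most 0.46% of the smaller library. Near the keratin limit, 235 cells lay between 0.5% and 0.6% of UMIs and 208 further cells between 0.4% and 0.5%, just outside. Doublets were not removed.

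The diet groups were told apart by few genes when each mouse counted once. UMIs were summed over the keratinocytes of a library, and edgeR's quasi-likelihood test found 1 gene of 14836 past an adjusted p of 0.05 (0.00674%), whereas 1094 had an unadjusted p below 0.05. That gene was Spink6, which was lower on HFD and lies under the level at which genes were otherwise named, so it was chosen after its values were seen. The call was lost without HFD replicate 2 (log2 fold change -3.36) and without HFD replicate 3 (-3.26), and also in 1 fit of all 12 libraries, with the keratins at 1% of UMIs or more, with up to 10% mitochondrial UMIs, and with every cell thinned (-3.41, -3.09, -3.07 and -2.94). DESeq2 called 94 genes, 76 higher on HFD (0.512% of those tested) and 18 lower (0.121%). At a mean of 5 CPM or more, the smallest p-values belonged to Acsbg1, Ivl and Il1f6 on the higher side and to Chka and H19 on the lower side. Without any test, all HFD libraries lay above all RD libraries in 1000 genes (6.74%) and below them in 965 genes (6.5%).

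Spink6, an inhibitor of kallikrein proteases in skin, was carried by very few cells. It was at 2.52, 2.19 and 1.46 CPM in the RD libraries and at 0.249, 0.180 and 0.158 CPM in the HFD libraries. The log2 fold change was -3.41 (SE 0.27; edgeR adjusted p = 0.00633; DESeq2 adjusted p = 8.11e-26). The groups did not overlap, yet the counts behind these levels were 401, 275 and 159 UMIs on RD and 24, 19 and 19 UMIs on HFD. On RD these UMIs sat in 49, 32 and 27 cells of 12753, 14053 and 7624 keratinocytes, and a single cell held 196, 103 and 28 of them. On HFD they sat in 11, 12 and 10 cells of 5669, 8036 and 8937 keratinocytes, and a single cell held at most 8, 6 and 8. Cells with 10 or more Spink6 UMIs numbered 7, 7 and 6 in the RD libraries and 0 in each HFD library. The limit of 10 lies just above the most held by any HFD cell, so the 0 depends on where it was placed. In the remaining cells, by plain library totals without the TMM scaling of the levels above, Spink6 was at 0.482, 0.288 and 0.354 CPM on RD and 0.243, 0.173 and 0.160 CPM on HFD. Most of the RD UMIs thus lay in 20 cells of the 3 RD mice, and in the other cells each RD mouse still lay above each HFD mouse. The sweat gland marker Aqp5 had a UMI in 15, 7 and 5 of the Spink6-bearing cells on RD (30.6%, 21.9% and 18.5%) and in 23.4%, 17.2% and 22.2% of all keratinocytes of the same libraries. On HFD it had a UMI in 1, 6 and 5 of the 11, 12 and 10 Spink6-bearing cells and in 23.0%, 23.2% and 17.2% of all keratinocytes. In females Spink6 reached 2.33 CPM in 1 RD library and 2.21 CPM in 1 HFD library and lay between 0.32 and 0.63 CPM in the others, with a log2 fold change of -0.06.

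**Figure D1:**
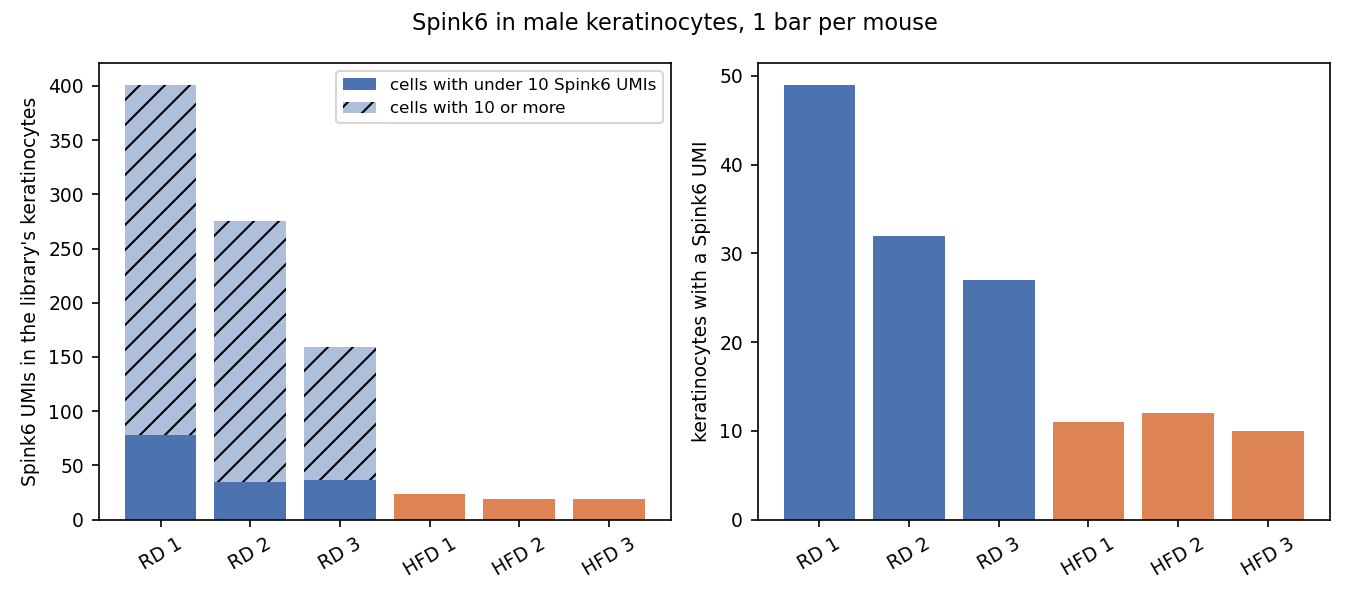
Spink6 UMIs (left) and keratinocytes with a Spink6 UMI (right) in each male library, with the UMIs split into those of cells with 10 or more and those of cells with fewer. The 3 RD libraries held 7, 7 and 6 cells with 10 or more UMIs and the HFD libraries held 0, where no cell held more than 8. The bars are not scaled to the number of keratinocytes, which was 12753, 14053 and 7624 on RD and 5669, 8036 and 8937 on HFD.

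Genes of the cornified envelope held more members above the RD range than any other list by count, though not by share, where 4 of 13 mitochondrially encoded genes came out the same. Of 39 such genes tested, 12 were higher in every HFD library than in any RD library and 0 were lower, where 6.74% and 6.5% of all genes were, and the median log2 fold change was 0.13 against -0.01 over all genes. None of the 39 passed in edgeR, and 7 passed in DESeq2, all higher, against 0.512% of all genes. The member with the largest log2 fold change, Lce3b, was at a mean of 1.92 CPM and overlapped between the diets (1.89, edgeR adjusted p = 0.756). Leaving out each library in turn gave medians between 0.08 (RD replicate 2) and 0.22 (RD replicate 1).

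Ivl encodes involucrin, an early envelope scaffold. It was at 20.9, 18.4 and 21.9 CPM on RD and 32.8, 34.4 and 29.0 CPM on HFD, a log2 fold change of 0.65 (SE 0.09; edgeR adjusted p = 0.160; DESeq2 adjusted p = 8.03e-06). Hrnr, for the filaggrin-like protein hornerin, was at 767, 647 and 628 CPM on RD and 1064, 1075 and 901 CPM on HFD, a log2 fold change of 0.57 (SE 0.11; edgeR adjusted p = 0.208; DESeq2 adjusted p = 0.000271). In both genes each HFD mouse lay above each RD mouse. The gap between the diets was wider than the range within either diet for Ivl, and narrower than both ranges for Hrnr. Lor, for loricrin, the most abundant envelope protein, was at 2498, 1705 and 1990 CPM on RD and 2813, 2600 and 2537 CPM on HFD, and RD replicate 1 came within a short distance of the HFD range (log2 fold change 0.36, edgeR adjusted p = 0.601). Flg, for filaggrin, was at 1325, 1276 and 957 CPM on RD and 1651, 1349 and 1507 CPM on HFD (log2 fold change 0.34, edgeR adjusted p = 0.620). Krt78, Cnfn (cornifelin), Cdsn (corneodesmosin), Tgm1 (a transglutaminase) and Nccrp1 completed the structural genes without overlap, with log2 fold changes from 0.31 to 0.48.

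The proteases and inhibitor that control shedding of the surface cells lay on the same side. Klk7, a protease that cuts corneodesmosomes, was at 119, 108 and 104 CPM on RD and 164, 144 and 156 CPM on HFD, a log2 fold change of 0.48 (SE 0.08; edgeR adjusted p = 0.203; DESeq2 adjusted p = 0.000237). Klk5, which activates Klk7, was at 127, 121 and 129 CPM on RD and 179, 159 and 162 CPM on HFD (log2 fold change 0.41, DESeq2 adjusted p = 0.00122). Spink5, which encodes their inhibitor LEKTI, was at 572, 527 and 542 CPM on RD and 695, 691 and 642 CPM on HFD (log2 fold change 0.31, DESeq2 adjusted p = 0.0292). Spink6, the other kallikrein inhibitor described here, was below its RD range.

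One family within the list went the other way. Of the 12 Lce1 genes tested, which encode late envelope proteins and lie in a cluster of near-identical copies, 10 had a log2 fold change below 0, with a median of -0.16 and a range from -0.25 to 0.04. Of the 27 other envelope genes, 26 were above 0, with a median of 0.31. This division was made after the values were seen, the Lce1 groups overlapped in all 12 genes, and reads of such similar genes can be split unevenly by counting.

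**Figure D2:**
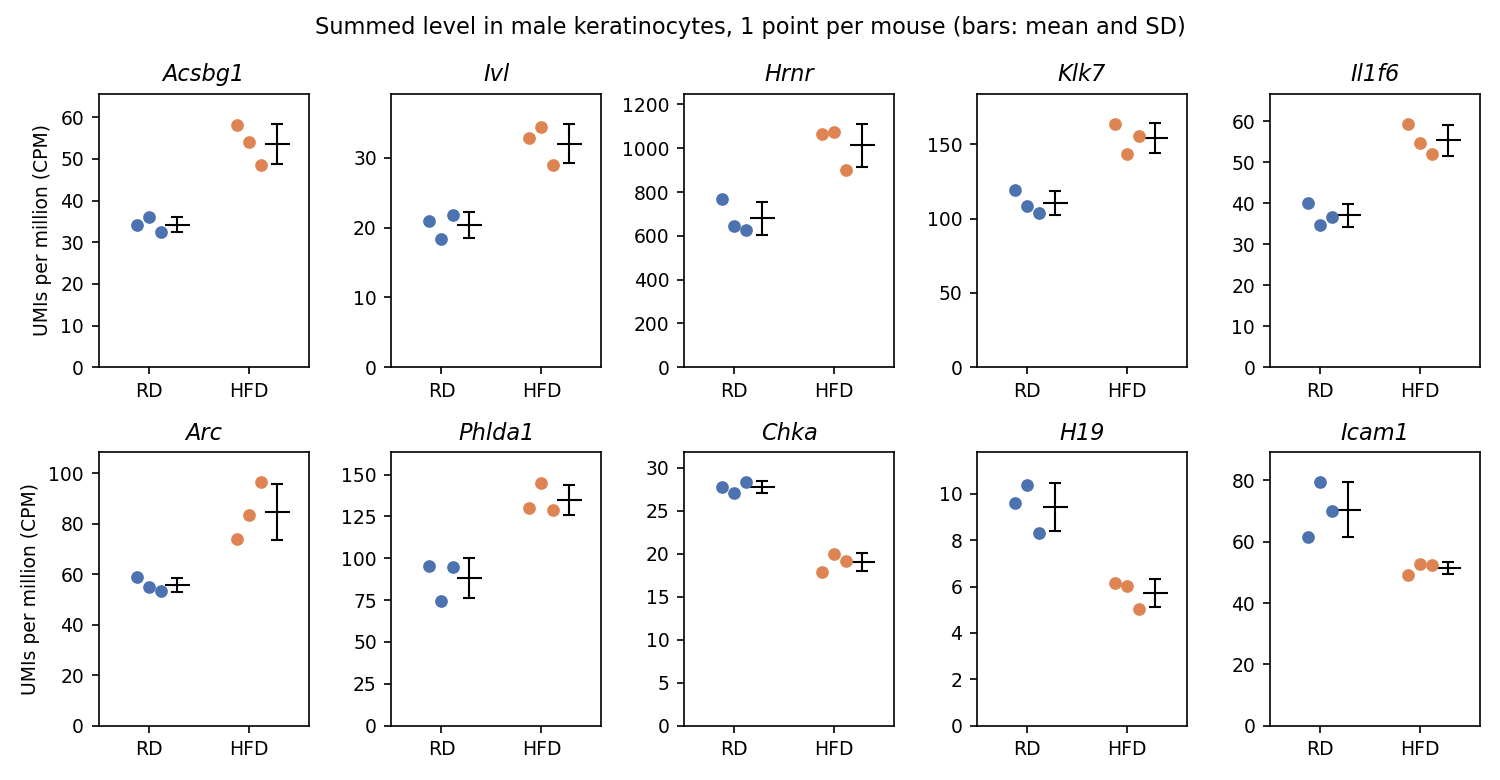
Summed level (CPM, linear axes from 0) of 10 named genes in male keratinocytes, 1 point per mouse, with the mean and SD of each diet beside the points. In 7 genes all HFD mice lie above all RD mice, and in Chka, H19 and Icam1 all lie below.

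Promoter letters are shown for Ivl, Hrnr, Klk7 and Acsbg1, which were higher on HFD in every library, and for Chka, which was lower, a choice made after their values were seen. Each line gives the 250 bases before the RefSeq start on the gene's own strand (GRCm38.p6), with motif letters in capitals. The motif letters searched, each on both strands, were TGANTCA for AP-1, TATAAA for the TATA box, GGGCGG for the GC box, and AACNGGTT for grainyhead factors. No matches overlapped.
Ivl (chr3:92573736-92573985, minus strand): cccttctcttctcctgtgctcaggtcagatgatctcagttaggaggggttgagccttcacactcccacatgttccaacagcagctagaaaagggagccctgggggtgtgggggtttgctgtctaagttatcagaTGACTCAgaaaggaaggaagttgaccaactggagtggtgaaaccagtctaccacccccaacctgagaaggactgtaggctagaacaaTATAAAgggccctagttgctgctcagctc
Hrnr (chr3:93319499-93319748, plus strand): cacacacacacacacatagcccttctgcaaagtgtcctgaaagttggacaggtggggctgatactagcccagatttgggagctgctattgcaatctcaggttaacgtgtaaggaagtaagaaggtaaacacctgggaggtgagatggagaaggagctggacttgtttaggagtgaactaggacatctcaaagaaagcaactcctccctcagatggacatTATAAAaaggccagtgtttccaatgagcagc
Klk7 (chr7:43811044-43811293, plus strand): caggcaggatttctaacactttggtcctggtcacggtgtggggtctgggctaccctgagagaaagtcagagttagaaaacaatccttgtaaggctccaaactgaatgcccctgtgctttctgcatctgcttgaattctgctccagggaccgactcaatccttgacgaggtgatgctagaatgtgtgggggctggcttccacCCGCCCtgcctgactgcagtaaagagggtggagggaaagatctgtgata
Acsbg1 (chr9:54661886-54662135, minus strand): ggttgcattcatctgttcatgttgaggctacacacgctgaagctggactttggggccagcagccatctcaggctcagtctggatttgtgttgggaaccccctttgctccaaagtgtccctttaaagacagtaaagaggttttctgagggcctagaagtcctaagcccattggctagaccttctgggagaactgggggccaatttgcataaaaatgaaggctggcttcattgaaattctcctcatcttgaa
Chka (chr19:3851523-3851772, plus strand): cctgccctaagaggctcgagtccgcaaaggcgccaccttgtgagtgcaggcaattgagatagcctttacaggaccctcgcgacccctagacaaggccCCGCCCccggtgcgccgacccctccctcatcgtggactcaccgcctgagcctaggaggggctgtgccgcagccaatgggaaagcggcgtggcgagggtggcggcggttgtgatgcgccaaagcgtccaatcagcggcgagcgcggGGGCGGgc

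Ivl held an AP-1 match 116 bases and a TATA match 29 bases before its start, Hrnr a TATA match 31 bases before, and Klk7 a GC box 49 bases before. Chka held GC boxes 153 and 8 bases before its start, and Acsbg1 held none of the 4 motifs in this window. Among 32851 promoters of the same length, 6.75% held the AP-1 letters, 12.4% the TATA letters, 32.7% the GC box and 1.79% the grainyhead letters, and no motif was found in all 5 genes.

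Genes of barrier lipids were read next. Acsbg1, which encodes an acyl-CoA synthetase for long-chain fatty acids and is in none of the lists, had the smallest p-value of all higher genes named. It was at 34.03, 36.1 and 32.6 CPM on RD and 58.2, 54.2 and 48.6 CPM on HFD, a 1.57-fold difference with a log2 fold change of 0.65 (SE 0.08; edgeR adjusted p = 0.119; DESeq2 adjusted p = 5.06e-07). Every HFD mouse was well above the highest RD mouse. Of 23 genes for ceramides and acylceramides, 5 were above the RD range in every HFD library and 1 was below it, against 6.74% and 6.5% of all genes. In 21 the log2 fold change was above 0, and the median of 0.16 was 0.09 without RD replicate 2. The 5 were the lipoxygenases Alox12b and Aloxe3, which act in binding ceramides to the envelope, a further lipoxygenase, Alox12e, and the sphingomyelin enzymes Smpd1 and Sgms1. Alox12e had the largest log2 fold change of the list, at 16.7, 16.2 and 11.9 CPM on RD and 28.7, 17.9 and 21.1 CPM on HFD (log2 fold change 0.59, edgeR adjusted p = 0.520). Cers4, a ceramide synthase, was at 67.0, 73.9 and 72.5 CPM on RD and 62.8, 64.4 and 55.8 CPM on HFD. The most abundant members, Degs1 and Abhd5, had log2 fold changes of 0.06 and 0.04. None of the 23 passed in edgeR or in DESeq2.

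The counts of the other lists of fat and sugar handling stand against 6.74% of all genes above the RD range and 6.5% below it. Of 23 genes of fatty acid synthesis and desaturation, 2 lay above and 1 (Fasn) below the RD range, with 15 log2 fold changes above 0 and a median of 0.13 that was 0.04 without RD replicate 2. Of 33 genes of uptake, storage and oxidation, 4 lay above and 0 below, with a median of 0.08 that was 0.04 without RD replicate 2, and the abundant Fabp5, a fatty acid binding protein, was at 9827, 9029 and 10581 CPM on RD and 10146, 10055 and 8561 CPM on HFD. Of 24 cholesterol synthesis genes, 1 lay above and 0 below, with a median of -0.02 that was -0.13 without RD replicate 2 and 0.05 without RD replicate 1, and -0.29 on the Krt5/Krt14 side. Of 23 genes of glucose uptake and glycolysis, 2 lay above and 1 below, with a median of -0.03, and of 21 genes of insulin and IGF signalling 3 lay above and 2 below, with a median of 0.03. No member of these lists passed in either tool. Among the most abundant members, log2 fold changes were 0.28 for Elovl4, 0.10 for Elovl7, 0.18 for Hadh, 0.04 for Pmvk, -0.10 for Hmgcs1, 0.03 for Gapdh, -0.05 for Ldha and -0.16 for Igfbp2, all with overlap. The most changed were Acacb (0.41), Pparg (0.62), Slc16a3 (-0.63), Grb10 (-0.69) and Idi1 (-0.33), of which all but Idi1 had a mean under 2 CPM.

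Whether more cells carried the envelope transcripts, or each carried more of them, was read after every cell had been thinned to 2000 UMIs, since median depth differed between libraries, from 6592 to 10873.5 UMIs on RD and from 10790 to 14977 on HFD. The 1286 cells with fewer UMIs were left out, and the genes were chosen after their sums were seen, so no test was made. Cells with more Krt1 and Krt10 than Krt5 and Krt14 UMIs were taken as one side and the reverse as the other. Lor was found in 33.5% to 37.1% of Krt1/Krt10-side cells on RD and in 41.4% to 47.1% on HFD (72.8% to 88.7% and 94.9% to 95.7% before thinning). On the Krt5/Krt14 side, where loricrin is not normally made, the share was 31.1% to 35.4% on RD and 38.0% to 46.3% on HFD. The share was thus higher on HFD on both sides. The part of free RNA in it, and in the shares of Hrnr, Cnfn, Spink5, Flg, Sbsn and Dsp, was not tested. Where a Lor UMI was present, the mean number of UMIs was 11.6 to 13.4 on RD and 11.6 to 13.2 on HFD on the Krt1/Krt10 side, and 2.90 to 3.15 and 2.00 to 3.13 on the other.

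Hrnr, Cnfn and Spink5 were found more often on the Krt1/Krt10 side than on the other in each library. Hrnr was found in 15.9% to 17.9% of Krt1/Krt10-side cells on RD and 19.8% to 21.5% on HFD, against 5.60% to 7.67% and 7.01% to 10.4% on the other side, while the UMIs per Hrnr-bearing cell overlapped between the diets. Cnfn had the reverse form. Its share overlapped, at 28.2% to 30.98% on RD and 30.2% to 31.6% on HFD, while its UMIs per bearing cell were 3.34 to 3.56 on RD and 3.75 to 3.88 on HFD. On the Krt5/Krt14 side the UMIs per Cnfn-bearing cell went the other way, at 1.74 to 2.01 on RD and 1.33 to 1.603 on HFD. Spink5 was like Cnfn, with shares of 50.9% to 52.5% and 51.5% to 55.8%, and with 2.60 to 2.76 and 2.82 to 3.01 UMIs per bearing cell. Both were found in under 10% of cells on the Krt5/Krt14 side. Flg shares overlapped on both sides, at 13.7% to 16.0% on RD and 15.9% to 20.3% on HFD on the Krt1/Krt10 side. On the Krt5/Krt14 side UMIs per Flg-bearing cell were 3.63 to 4.67 on RD and 2.26 to 2.97 on HFD. Sbsn overlapped in both measures on both sides. The Dsp share on the Krt1/Krt10 side was 92.2% to 93.1% on RD and 93.3% to 94.0% on HFD. Before thinning, the Hrnr share on the Krt1/Krt10 side was 34.6% to 42.1% on RD and 49.7% to 52.2% on HFD, and on the Krt5/Krt14 side it was 16.6% to 26.9% on RD and 31.6% to 35.6% on HFD, also without overlap.

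**Figure D3:**
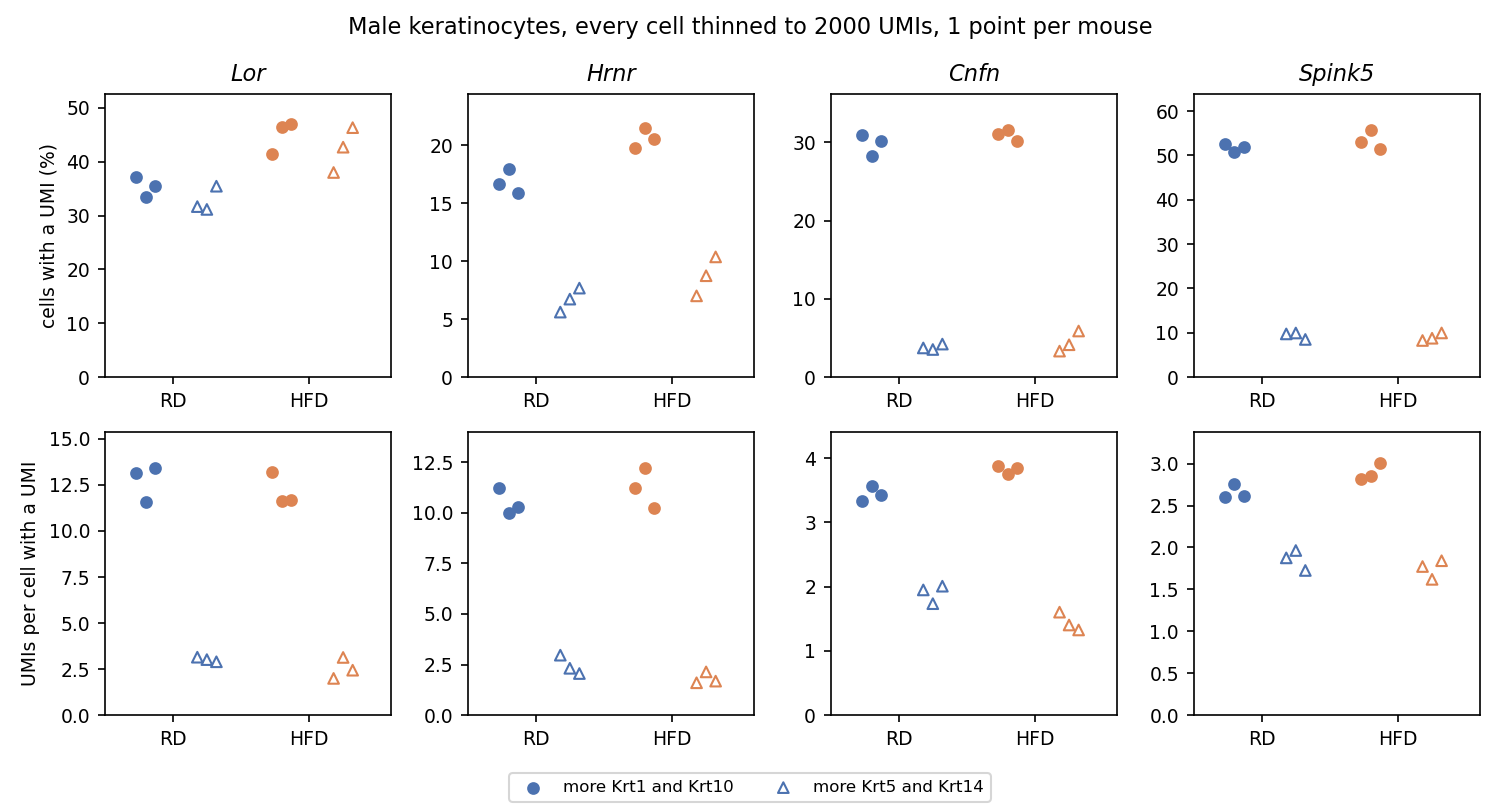
Share of cells with at least 1 UMI (top, percent) and mean UMIs in those cells (bottom) for 4 genes after thinning each cell to 2000 UMIs, 1 point per mouse. Filled circles are Krt1/Krt10-side cells and open triangles Krt5/Krt14-side cells. Lor shares are of similar size on both sides, whereas Cnfn and Spink5 are rare on the Krt5/Krt14 side.

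The share of cells on each keratin side did not separate the diets, while some spinous genes lay above the RD range. The share of Krt1/Krt10-side cells was 58.3%, 53.1% and 53.7% on RD and 58.0%, 58.8% and 50.3% on HFD, a mean of 55.03% ± 2.81 against 55.7% ± 4.70 (SD, n = 3 each). The difference of 0.680 percentage points had an exact two-sided permutation p of 0.9, where 3 mice against 3 cannot give less than 0.1. The 4 keratins that define the sides had also selected the cells, by their sum. Between 4.07% and 5.59% of cells lay near the division, with 40% to 60% of the 4 keratins in Krt1 and Krt10. Of 16 basal layer genes 0 lay above and 1 (Lama3, a laminin chain) below the RD range, with a median log2 fold change of -0.06. That median was -0.14 without HFD replicate 3 and 0.02 without RD replicate 2. The most abundant basal layer members, Col17a1 and Krt15, had log2 fold changes of 0.07 and 0.17 and the most changed, Postn, 0.54, all with overlap. Of 18 spinous genes 4 lay above (Sbsn, Dsp, Grhl3 and Skint3) and 0 below, against 6.74% and 6.5% of all genes, with 14 of the 18 above 0 and a median of 0.13 that was 0.08 without HFD replicate 1 and 0.21 without HFD replicate 3. Of 9 volar and stress keratins 0 lay above or below, with a median of 0.29 that was 0.08 without RD replicate 2, and Krt16, a keratin of stressed skin, was at 630, 361 and 655 CPM on RD and 491, 623 and 496 CPM on HFD. The spinous genes Lgals7 and Krtdap, the most abundant of theirs, had log2 fold changes of -0.01 and -0.18, and the keratins Krt2 and Krt77 had 0.14 and 0.82, again with overlap.

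Genes of the cell cycle overlapped between the diets. Of 25 genes of G2 and mitosis 23 had a log2 fold change below 0, with a median of -0.14, but all 25 overlapped between the diets. Mki67, a marker of cycling cells, was at 80.8, 107 and 93.0 CPM on RD and 82.5, 79.4 and 97.6 CPM on HFD, and Ube2c and Ccna2 had log2 fold changes of -0.13 and -0.26. RD replicate 2 was the highest and had the highest summed level of both cell cycle lists, and without it the median was -0.07, and without RD replicate 1 it was -0.25. Of 25 S phase genes 0 lay outside the RD range in every HFD library, with a median of -0.04 that was 0.10 without RD replicate 2. The counts of both cell cycle lists stand against 6.74% of all genes above the RD range and 6.5% below it. Pcna, Pclaf and Clspn had log2 fold changes of 0.14, -0.12 and -0.29.

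Arc and Phlda1 were among the 10 higher genes of smallest p, and Egr2 had the largest log2 fold change of the immediate early and heat shock list, to which Arc and Phlda1 do not belong. Arc, best known as an immediate early gene of neurons, was at 58.7, 54.9 and 53.2 CPM on RD and 74.1, 83.4 and 96.4 CPM on HFD, a log2 fold change of 0.61 (SE 0.10; edgeR adjusted p = 0.203; DESeq2 adjusted p = 5.38e-05). Its log2 fold change was similar on the Krt5/Krt14 side (0.60) and on the Krt1/Krt10 side (0.61). Egr2, an immediate early transcription factor, was at 26.8, 29.6 and 26.3 CPM on RD and 36.9, 41.0 and 34.4 CPM on HFD (log2 fold change 0.44, DESeq2 adjusted p = 0.00506). Phlda1, which is induced by growth factors, was at 95.7, 74.6 and 94.6 CPM on RD and 130, 145 and 129 CPM on HFD (log2 fold change 0.61, DESeq2 adjusted p = 0.000129). Of the 25 genes of that list 2 lay above the RD range (Egr2 and Nr4a1) and 1 below (the chaperone gene Hspa8), near the 6.74% and 6.5% of all genes, with a median of 0.06, and Jun was at 1677, 1846 and 1824 CPM on RD and 1780, 1802 and 1779 CPM on HFD. Hspb1, a small heat shock protein gene, had a log2 fold change of 0.17 with overlap.

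Ligands of the EGF receptor, which drive keratinocyte growth and migration, included one of the DESeq2 calls. Ereg (epiregulin) was at 127, 113 and 121 CPM on RD and 154, 181 and 147 CPM on HFD, a log2 fold change of 0.41 (SE 0.09; edgeR adjusted p = 0.321; DESeq2 adjusted p = 0.0189). On the Krt5/Krt14 side its log2 fold change was -0.32, and on the Krt1/Krt10 side 0.40. Of 15 genes of the receptor family and its ligands 4 lay above the RD range (Egfr, Areg, Ereg and the feedback inhibitor Errfi1) and 0 below, against 6.74% and 6.5% of all genes, and 1 passed in DESeq2 as higher, against 0.512%. The median of 0.10 was 0.06 without RD replicate 2 and 0.20 without RD replicate 1. Hbegf, the most abundant ligand, was at 318, 387 and 350 CPM on RD and 336, 361 and 344 CPM on HFD.

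Among 30 cytokines, chemokines and alarmins, 7 lay above and 1 below the RD range, against 6.74% and 6.5% of all genes, with a median log2 fold change of 0.09 that was -0.03 without RD replicate 2 and 0.24 without RD replicate 1. Il1f6, now called Il36a, an interleukin of the IL-36 family made by upper keratinocytes, was at 40.1, 34.6 and 36.5 CPM on RD and 59.5, 54.6 and 52.1 CPM on HFD, a log2 fold change of 0.58 (SE 0.08; edgeR adjusted p = 0.160; DESeq2 adjusted p = 1.03e-05). Lcn2, for the iron-binding antimicrobial protein lipocalin-2, was at 5.21, 5.16 and 6.65 CPM on RD and 8.08, 9.53 and 11.0 CPM on HFD (log2 fold change 0.75, DESeq2 adjusted p = 0.000271). The IL-36 receptor antagonist Il36rn, the chemokine Ccl2 and the defensins Defb1, Defb3 and Defb4 were the others above, and Ccl2 was at 36.8, 16.3 and 37.6 CPM on RD and 54.8, 38.7 and 45.3 CPM on HFD (edgeR adjusted p = 0.673). The most abundant members, Nfkbia and Ccl20, overlapped, with log2 fold changes of 0.07 and 0.27, and the most changed was Defb4 at 0.94. The chemokine Cxcl14 was the member below, at 104, 104 and 125 CPM on RD and 90.9, 85.8 and 89.7 CPM on HFD. Of 25 genes of interferon response and antigen processing 3 lay above the RD range (Ifi27, Gbp2 and B2m) and 0 below, with a median of 0.21. B2m was lowest in RD replicate 2, at 28.8 CPM against 45.01 and 45.7 in the other RD mice and 59.5, 47.2 and 58.3 on HFD, and without that library the list's median was 0.08. The abundant H2-D1 and Ifi27 had log2 fold changes of 0.12 and 0.21, and the most changed, Isg15, had 0.60 with overlap.

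Lists of neurotrophic and axon guidance genes and of pleiotrophin and nectin signalling were also read. Of 26 members of the neurotrophic and axon guidance list 1 lay above the RD range and 0 below, with a median log2 fold change of 0.00. Of all genes, 6.74% lay above and 6.5% below. The member above, Pla2g2f, encodes a secreted phospholipase, not a neurotrophic or guidance factor. It was at 68.1, 65.4 and 66.9 CPM on RD and 91.1, 78.9 and 83.9 CPM on HFD (log2 fold change 0.34, edgeR adjusted p = 0.293, DESeq2 adjusted p = 0.0199). Nrtn, for the neurotrophic factor neurturin, was at 51.9, 65.7 and 55.7 CPM on RD and 78.7, 74.7 and 64.6 CPM on HFD, and the groups overlapped. Of 14 genes of pleiotrophin and nectin signalling 3 lay above and 1 below, with a median of 0.03. Nectin4, an adhesion receptor, was at 56.3, 53.0 and 52.4 CPM on RD and 68.6, 67.5 and 57.3 CPM on HFD, and the surface proteoglycan gene Sdc4 at 668, 700 and 643 CPM on RD and 745, 818 and 707 CPM on HFD. The abundant Ncl (-0.04) overlapped, the most changed of the list, Mdk, had a log2 fold change of -0.59 at a mean of 0.217 CPM, and Sema7a, the most changed axon guidance gene, had 0.48 with overlap.

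On the lower side, Chka, for choline kinase, the first enzyme of phosphatidylcholine synthesis, had the smallest p-value after Spink6. It was at 27.8, 27.1 and 28.4 CPM on RD and 17.9, 19.98 and 19.2 CPM on HFD, a log2 fold change of -0.55 (SE 0.07; edgeR adjusted p = 0.119; DESeq2 adjusted p = 2.38e-06). The log2 fold change was similar on the Krt5/Krt14 side (-0.51) and on the Krt1/Krt10 side (-0.54). H19, an imprinted non-coding RNA, was at 9.58, 10.4 and 8.31 CPM on RD and 6.14, 6.01 and 5.04 CPM on HFD (log2 fold change -0.72, DESeq2 adjusted p = 5.38e-05). Icam1, an adhesion molecule induced in inflamed keratinocytes, was at 61.6, 79.6 and 70.0 CPM on RD and 49.2, 52.9 and 52.3 CPM on HFD (log2 fold change -0.45, DESeq2 adjusted p = 0.00937). Hist1h4i (a histone H4 gene), Tmem266, Tmem97, Ankrd37, Itpk1 and the transcript 5930430L01Rik, also among the 10 lower genes of smallest p, had log2 fold changes from -0.65 to -0.30 and no overlap. Among stress response genes Ddit4, an inhibitor of mTORC1 signalling, was at 10.8, 14.0 and 11.8 CPM on RD and 8.47, 7.63 and 9.79 CPM on HFD (DESeq2 adjusted p = 0.0364).

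The other higher genes of smallest p were Eps8l1, an actin regulator, Gsdma, a pore-forming gasdermin of the upper epidermis, Klhl21 and Acta2. Gsdma was at 28.4, 25.7 and 24.2 CPM on RD and 38.5, 36.5 and 34.5 CPM on HFD (log2 fold change 0.48, DESeq2 adjusted p = 0.000702). Acta2, a smooth muscle actin, was at 8.85, 8.04 and 7.47 CPM on RD and 12.8, 11.97 and 11.1 CPM on HFD, and the muscle actin Acta1, one of the muscle markers, at 1.35, 1.01 and 0.798 CPM on RD and 2.34, 2.07 and 2.46 CPM on HFD. The part that muscle RNA had in this was not tested.

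The counts of the remaining lists stand against 6.74% of all genes above the RD range and 6.5% below it. Of 20 genes of the unfolded protein and integrated stress response 0 lay above and 1 (Ddit4) below the RD range, with a median of 0.02. Of 24 genes of oxidative stress and metallothioneins 1 (Cat) lay above and 4 (Nqo1, Gsr, Gpx1 and Keap1) below, with a median of -0.04. Of 21 clock genes 2 lay above, with a median of 0.05, and of 11 glucocorticoid response genes 1 lay above and 1 below, with a median of 0.08. Of 78 nuclear respiratory chain genes and 81 cytosolic ribosomal protein genes 2 each lay above and 0 below, with medians of 0.01 and 0.01. Of 13 mitochondrially encoded genes 4 lay above and 0 below, with a median of 0.11 that was 0.05 without HFD replicate 2, while the median keratinocyte had 3.04% to 3.27% mitochondrial UMIs on RD and 3.35% to 3.51% on HFD. Among the most abundant members of these lists, log2 fold changes were 0.25 for Rora, 0.07 for Bhlhe40, -0.12 for Mt4, 0.06 for Mt1, 0.04 for Phgdh, 0.03 for Hspa5, 0.08 for Cdkn1a, 0.33 for Errfi1, -0.07 for Atp5l, 0.07 for Atp5g2, 0.21 for mt-Atp6, 0.11 for mt-Co1, 0.10 for Rplp0 and 0.04 for Rpl13. Of these, only Errfi1 and mt-Atp6 did not overlap. The most changed were Gpx2 (-0.46), Zbtb16 (0.41), Ndufa1 (0.15), mt-Atp8 (-0.87) and Rpl39l (-0.64), all with overlap. Gm42418, a transcript that overlaps ribosomal RNA and was taken up after its values were seen, was at 7878, 7202 and 9379 CPM on RD and 14753, 16026 and 11805 CPM on HFD (DESeq2 adjusted p = 8.54e-06). The part of mitochondrial and ribosomal RNA in the other differences was not tested.

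**Figure D4:**
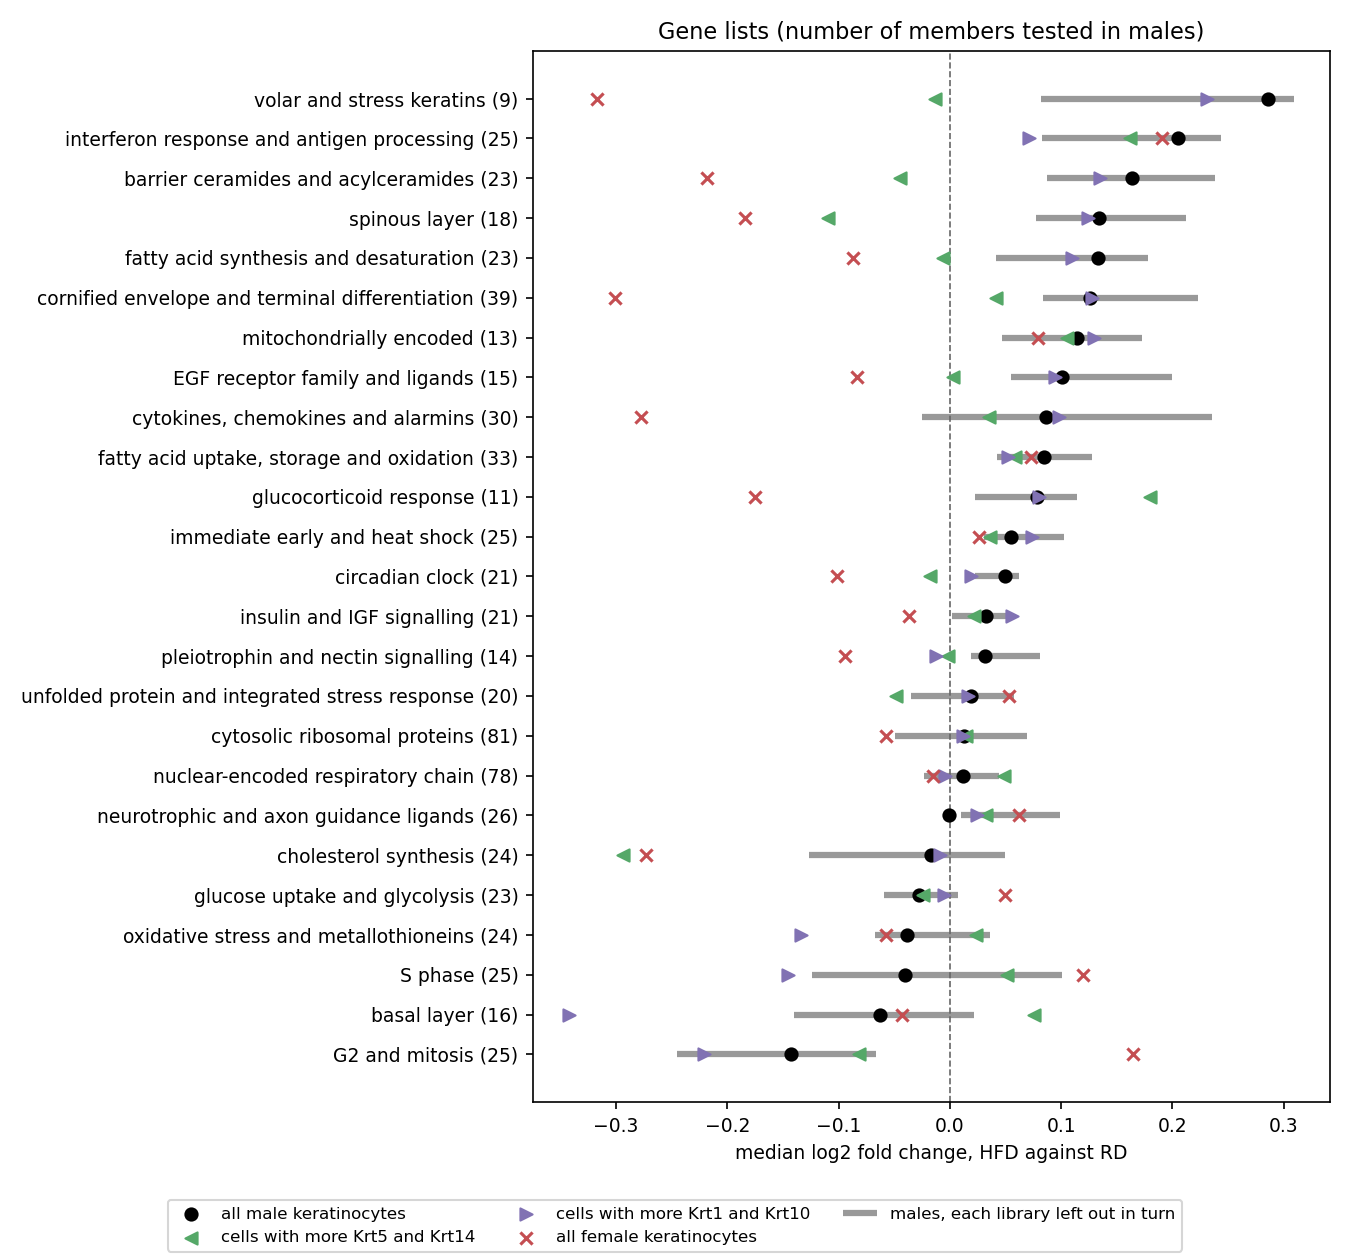
Median log2 fold change of each gene list, HFD against RD, in all male keratinocytes (circles), in the 2 keratin sides (triangles) and in female keratinocytes (crosses). Grey bars span the male medians when each library was left out in turn, and the number of genes tested stands beside each name.

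Each keratin side was also tested alone. On the Krt5/Krt14 side, with 25538 cells, none of 13679 genes passed in edgeR (0 calls, 0.0%; 920 had an unadjusted p under 0.05) and 45 passed in DESeq2. On the Krt1/Krt10 side, with 31500 cells, 5 of 13534 genes passed in edgeR (0.0369%) and 142 in DESeq2. The 5 were Ivl, Phlda1 and Il1f6, higher on HFD, and Cxcl14 and H19, lower, with Cxcl14 named after its values were seen. Without RD replicate 2 the count was 41, and without any of the other 5 male libraries it was 0.

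In these Krt1/Krt10-side cells Ivl rose from 29.5, 29.0 and 32.3 CPM on RD to 46.9, 49.5 and 44.5 CPM on HFD, a log2 fold change of 0.64 (SE 0.07; edgeR adjusted p = 0.0409). Il1f6 rose from 56.7, 54.6 and 55.1 CPM to 84.9, 78.8 and 79.9 CPM (log2 fold change 0.55, edgeR adjusted p = 0.0409). Phlda1 rose from 115, 104 and 118 CPM to 168, 185 and 176 CPM (log2 fold change 0.65, edgeR adjusted p = 0.0409). In all 3 genes the RD mice stood close together and the HFD mice clearly above them. Cxcl14 fell from 37.5, 32.1 and 37.6 CPM to 17.5, 19.4 and 21.3 CPM (log2 fold change -0.88, edgeR adjusted p = 0.0409). H19 fell from 2.29, 2.61 and 2.20 CPM to 1.08, 0.968 and 0.824 CPM (log2 fold change -1.31, edgeR adjusted p = 0.0476). Both had higher levels on the Krt5/Krt14 side, where Cxcl14 was at 242, 220 and 286 CPM on RD and 248, 223 and 209 CPM on HFD, with overlap, and H19 had a log2 fold change of -0.56. The basal layer list as a whole had a median of -0.34 on the Krt1/Krt10 side, and the part of basal RNA in these 2 falls was not tested.

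The envelope list had a median log2 fold change of 0.13 on the Krt1/Krt10 side and 0.04 on the Krt5/Krt14 side. The basal layer list had 0.08 on the Krt5/Krt14 side. The difference between the sides was not tested.

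Female keratinocytes, selected by the same rule (58192 cells), gave another picture of the same diet. In females 637 of 17474 genes passed in edgeR (3.65%), 267 higher and 370 lower on HFD. The count was 0 without female RD replicate 2, 1 without RD replicate 1, 11 without RD replicate 3, 26 without HFD replicate 3 and 1144 without HFD replicate 2. The fold changes of the sexes were then compared directly, as a diet by sex term fitted to the 12 libraries, which called 142 of 17741 genes (0.8%), 75 with a more positive and 67 with a more negative fold change in males, while DESeq2 called 782, 497 more positive and 285 more negative. Leaving out each library in turn gave between 16 (male RD replicate 3) and 429 (male RD replicate 2) calls. Of the 142, 74 were above 0 in males and below 0 in females, 67 were the reverse and 1 had the same sign in both. Selecting genes for a large difference between the sexes favours opposite signs, so this split is not a separate result. Male counts were made with an earlier version of the counting software than female counts, and sex and software cannot be told apart, although both diets of a sex share their software. Levels are therefore not compared between the sexes here.

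Envelope genes were among those that differed. Ivl was at 13.7, 11.9 and 14.9 CPM in female RD and 10.1, 7.65 and 11.6 CPM in female HFD libraries, a log2 fold change of -0.46 against 0.65 in males, and the difference of 1.09 (SE 0.18) had an edgeR interaction adjusted p of 0.0201. Spink5 had log2 fold changes of 0.31 in males and -0.36 in females (edgeR interaction adjusted p = 0.0343). They were the 2 members of the list, of 39 tested in males, that passed this test, which 0.8% of all genes passed. The list as a whole had 28 of 39 genes above 0 in males, with a median of 0.13, and 28 of 38 below 0 in females, with a median of -0.30. Outside the Lce1 family, a division made after the male values were seen, 26 of 27 lay above 0 in males and 25 of 26 below 0 in females. In females the share of Krt1/Krt10-side cells was 49.4%, 50.8% and 52.2% on RD and 46.0%, 42.7% and 47.4% on HFD. Each female HFD library thus lay below each female RD library in this share, unlike in males. The part of this share in the female values and in the sex differences was not tested. Hrnr, with a difference of 1.06, missed the threshold (edgeR interaction adjusted p = 0.0567).

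Among lipid and signalling genes, 1 of 23 ceramide genes, 1 of 15 genes of the EGF receptor family, 0 of 23 genes of fatty acid synthesis and 0 of 25 immediate early and heat shock genes passed the test of the sex difference, which 0.8% of all genes passed. These lists did not stand out. The count was also 1 of 30 cytokines, chemokines and alarmins, 1 of 14 pleiotrophin and nectin genes, 1 of 9 volar and stress keratins and 1 of 21 clock genes. Acsbg1 was at 35.5, 32.5 and 38.5 CPM in female RD and 35.6, 27.5 and 30.9 CPM in female HFD libraries (difference 0.81, SE 0.14, edgeR interaction adjusted p = 0.0212). Il1f6 was at 20.3, 29.9 and 25.3 CPM in female RD and 18.0, 17.5 and 10.2 CPM in female HFD libraries (difference 1.28, SE 0.25, edgeR interaction adjusted p = 0.0341). Ereg was at 58.0, 49.8 and 71.7 CPM in female RD and 45.1, 28.2 and 23.5 CPM in female HFD libraries (difference 1.28, SE 0.27, edgeR interaction adjusted p = 0.0435). Acsbg1, Il1f6 and Ereg were picked at least in part by their male values, which this test uses again. Alox12b differed as well, with log2 fold changes of 0.38 and -0.47 (edgeR interaction adjusted p = 0.0262). Phlda1 did not separate the sexes, at 0.61 in males and 0.34 in females (difference 0.25, SE 0.19, edgeR interaction adjusted p = 0.582), and neither did Egr2, at 0.44 and 0.03 (difference 0.39, SE 0.16, edgeR interaction adjusted p = 0.274).

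**Figure D5:**
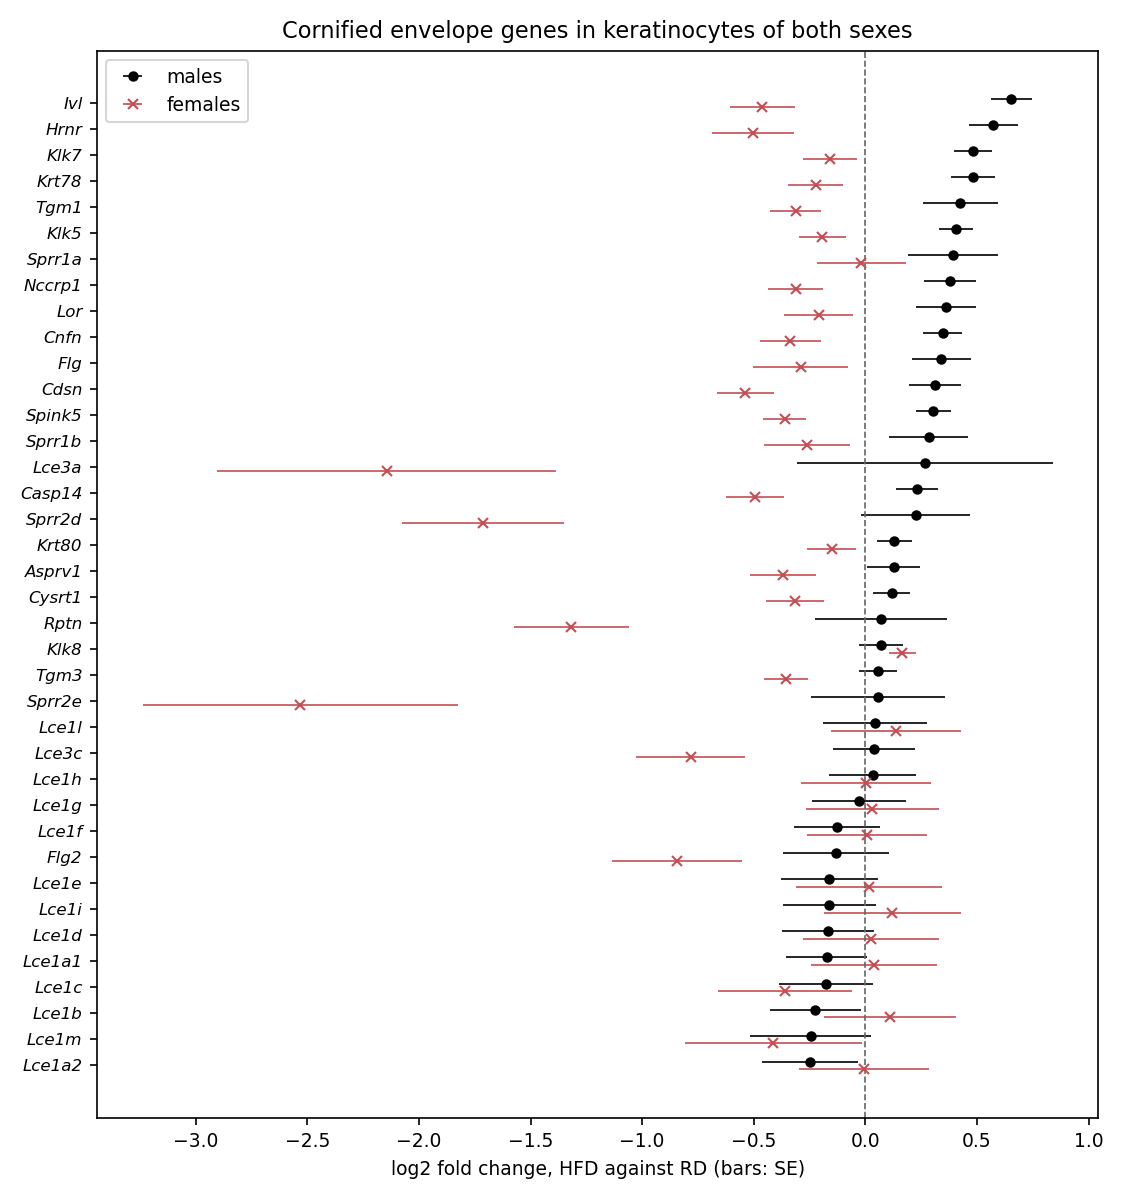
Log2 fold change (HFD against RD, with SE) of 38 cornified envelope genes in male (circles) and female (crosses) keratinocytes. Most genes outside the Lce1 family lie above 0 in males and below 0 in females, and 10 of the 12 Lce1 genes lie below 0 in males.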

How the data were processed

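Single-cell RNA-seq libraries (10x 3′ v3.1) of 12 mice, 1 mouse per library, were used. The authors deposited UMI counts per gene and droplet from Cell Ranger on mm10. Per the file headers, male counts came from version 6.1.0 and female counts from 7.2.0, and the labels name 7.2.0. Whether introns were counted is not given in the sources used here. Male keratinocytes were selected by the rule that opens the report, and their counts were summed per library (98604579 to 161734853 UMIs). The male comparison was tested with edgeR 4.0.16 (quasi-likelihood, TMM, filterByExpr), DESeq2 1.42.0 as an alternative, both with Benjamini-Hochberg adjustment at 0.05. The study tested single cells, which are not replicates. A rule picked genes: the 10 per direction of smallest p at 5 CPM or more, since none passed there, and from each list the 2 most abundant and the most changed. Every other gene given with values (such as Spink6, Hrnr, Klk5, Spink5, Krt78, Cnfn, Alox12b, Cers4, Lcn2, Ccl2, Cxcl14, Nectin4) was chosen after its values were seen. Members and the 25 lists (662 entries tested) were chosen with earlier results of these data known. Thinning to 2000 UMIs per cell was chosen after the sums were seen. Scripts were tested on simulated data. Intervals and p-values cover the spread between these mice. Some list members are not reported here by name.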

Additional observations from a re-analysis of the deposited data

Results flagged for a closer look

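In 8 of the genes picked by the naming rule the fold change of the diet differed between male and female keratinocytes in the edgeR diet by sex term over 12 libraries (adjusted p between 0.0126 and 0.0435), with the male value more positive in 6. Of all genes, 0.8% passed this term. The 8 were picked by their male p-value, or in the case of Ereg by its level and male change. The term uses the same male values, so passing and the direction of the difference were favoured by the choice. The male log2 fold change exceeded the female one by 1.28 for Il1f6 (edgeR adjusted p = 0.0341), 1.28 for Ereg (0.0435), 1.09 for Ivl (0.0201), 0.91 for Gsdma (0.0160), 0.81 for Acsbg1 (0.0212) and 0.80 for Klhl21 (0.0126). It was more negative by -0.76 for 5930430L01Rik (0.0333) and by -0.61 for Chka (0.0343).

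In females Gsdma was at 13.4, 12.7 and 13.0 CPM on RD and 11.3, 7.95 and 9.49 CPM on HFD, and Klhl21 at 39.9, 36.8 and 38.5 CPM on RD and 31.1, 27.8 and 33.7 CPM on HFD. Chka was at 146, 143 and 153 CPM on RD and 156, 169 and 131 CPM on HFD, with overlap, and 5930430L01Rik at 9.32, 6.92 and 8.87 CPM on RD and 10.3, 10.7 and 10.3 CPM on HFD. Sex and the version of the counting software cannot be told apart.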

How the results depend on the processing

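Calls were few and moved with the tool and the library. In males the 1 call became 94 in DESeq2, 51 with no filter on low counts, 4 with the replicate block, 3 with the same number of cells per library, and 0 in 1 fit of all 12 libraries, with 4 keratins at 1% of UMIs, with up to 10% mitochondrial UMIs, and with every cell thinned to the same UMIs; leaving out each library gave 0 (HFD replicate 2 or 3) to 1. The female count became 1478 in DESeq2 and 30 with the replicate block, and 0 to 1144 over left-out libraries. The diet by sex count became 782 in DESeq2, 238 with no filter and 78 with the replicate block, and 16 to 429 over left-out libraries. On the Krt5/Krt14 side it became 45 in DESeq2, 43 with no filter, 3 with the replicate block and 0 to 31 over left-out libraries (31 without RD replicate 2), and on the Krt1/Krt10 side 142, 117, 1 with the replicate block and 0 to 41 (41 without RD replicate 2). The cause of these moves was not tested. Same-numbered male mice share only a number: their deviations correlated at 0.08, 0.03 and 0.005 over 8356 genes, and not every mouse correlated best with its own number. Over 94 named genes, 1548 of 1593 values under alternatives kept their call, 39 passed where the edgeR fit did not, and 6, all of Spink6, no longer passed; 0 reversed a call, and 48 values in 25 genes had the other sign. The difference in Krt1/Krt10-side share ranged from -0.89 to 3.38 percentage points. With 3 mice a group, differences of the size of the spread were not detectable.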
